A study of Emiliania huxleyi CCMP1516 with 36 samples.

Results

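The Rab, Arf and Arl genes of the marine alga Emiliania huxleyi were followed across all 9 groups of an RNA-seq study. They were taken by name: 37 of the 37212 genes in the table carry an identifier that starts with Rab, Arf or Arl once the identifiers starting with Arf4 or Arf5 are set aside. The 37 comprise 22 Rab, 6 Arf and 9 Arl genes.

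Cultures were of the axenic (bacteria-free) strain CCMP2090, a unicellular coccolithophore, whereas the organism field of the labels names CCMP1516. They received 2-heptyl-4-quinolone (HHQ), an alkylquinolone signal released by some bacteria, at a final concentration of 1, 10 or 100 ng/ml. Controls received only its vehicle, 0.002% dimethyl sulfoxide. RNA was taken after 24 and 72 h and from the parent cultures at time 0, with 4 biological replicates in each of the 9 groups, 36 libraries in all. HHQ doses are written below as HHQ 1, HHQ 10 and HHQ 100.

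Rab, Arf and Arl proteins are small GTPases that switch between a GTP-bound and a GDP-bound form. In the GTP-bound form they sit on a particular membrane and recruit the coats, tethers and motors that bud, move or dock vesicles there. Exchange factors load GTP and activating proteins promote its hydrolysis, so that the set of these proteins on a membrane helps to define which organelle it is. Roles given below come from yeast, animals and plants and are attached through the gene symbol. They were not tested in this alga.

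Levels are in CPM, counts relative to the size of the library, after scaling by TMM factors, which set most genes to no change between libraries. Differences were tested with edgeR's quasi-likelihood F test over the 26494 genes that passed a filter on low counts. A gene is called, and said to have risen or fallen, at a Benjamini-Hochberg adjusted p under 0.05. The value after ± is the SD over 4 libraries for a level and the standard error (SE) for a log2 fold change.

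Library totals ran from 5679128 to 42602884 estimated counts, and all members together took 0.473% ± 0.066 of them with vehicle at 24 h and 0.487% ± 0.0387 with HHQ 100. At 72 h the shares were 0.55% ± 0.141 and 0.572% ± 0.128. The TMM factors differed between the groups, from 0.670 to 1.10 with vehicle and 1.60 to 1.83 with HHQ 100 at 24 h, and from 0.491 to 0.895 and 1.23 to 2.13 at 72 h. As a check of the cells, 78 of 85 light-harvesting Lhcf genes were tested and the family took 2.29 to 14.3% of the counts of a library, while neither of the 2 flagellar genes with a symbol had a count. In bulk RNA, fewer cells with a transcript and less transcript per cell cannot be told apart.

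Of the 37 members, 27 passed the filter and 10 did not. ARL3a, ARL3b and Rab11L-2 had 0 counts in all 36 libraries. The others below the filter had few counts over all libraries: 2 for Rab11L-1, 3 for Arf3-2, 5 for ARL16-1, 20 for ARLX-2, 21.4 for Rab6-2, 21.9 for Rab5L-2 and 29 for ARL13. Rab6-2 and Rab5L-2 are short, with gene spans of 162 and 288 bp. ARL3 and ARL13 serve the cilium in animals and in green algae. The mean level of the tested members ran from 0.305 CPM for ARL8-2 to 1471 CPM for Arf1, and ARL8-2 and Rab2-2, at 0.674 CPM, were the only ones with a mean under 1 CPM.

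The comparison of HHQ 100 with vehicle shows how these genes differed at the highest dose. After 24 h, 12 of the 27 tested members were called, 7 higher and 5 lower, a share of 44.4% beside 41.1% of all tested genes (21.6% higher and 19.5% lower). After 72 h it was 20 of 27, 10 higher and 10 lower, or 74.1% beside 46.2% (22.6% higher and 23.6% lower). Across the members the median difference was −0.36 log2 units at 24 h and −0.27 at 72 h, and across all genes tested it was 0.07 and 0.04. The falls depend on the scale: with library totals in place of TMM factors, no member was called lower at either time, and 11 at 24 h and 13 at 72 h were called higher. On that scale 50.4% and 60.8% of all tested genes were called in either direction, 11545 higher and 1803 lower at 24 h and 14505 higher and 1593 lower at 72 h.

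**Figure D1:**
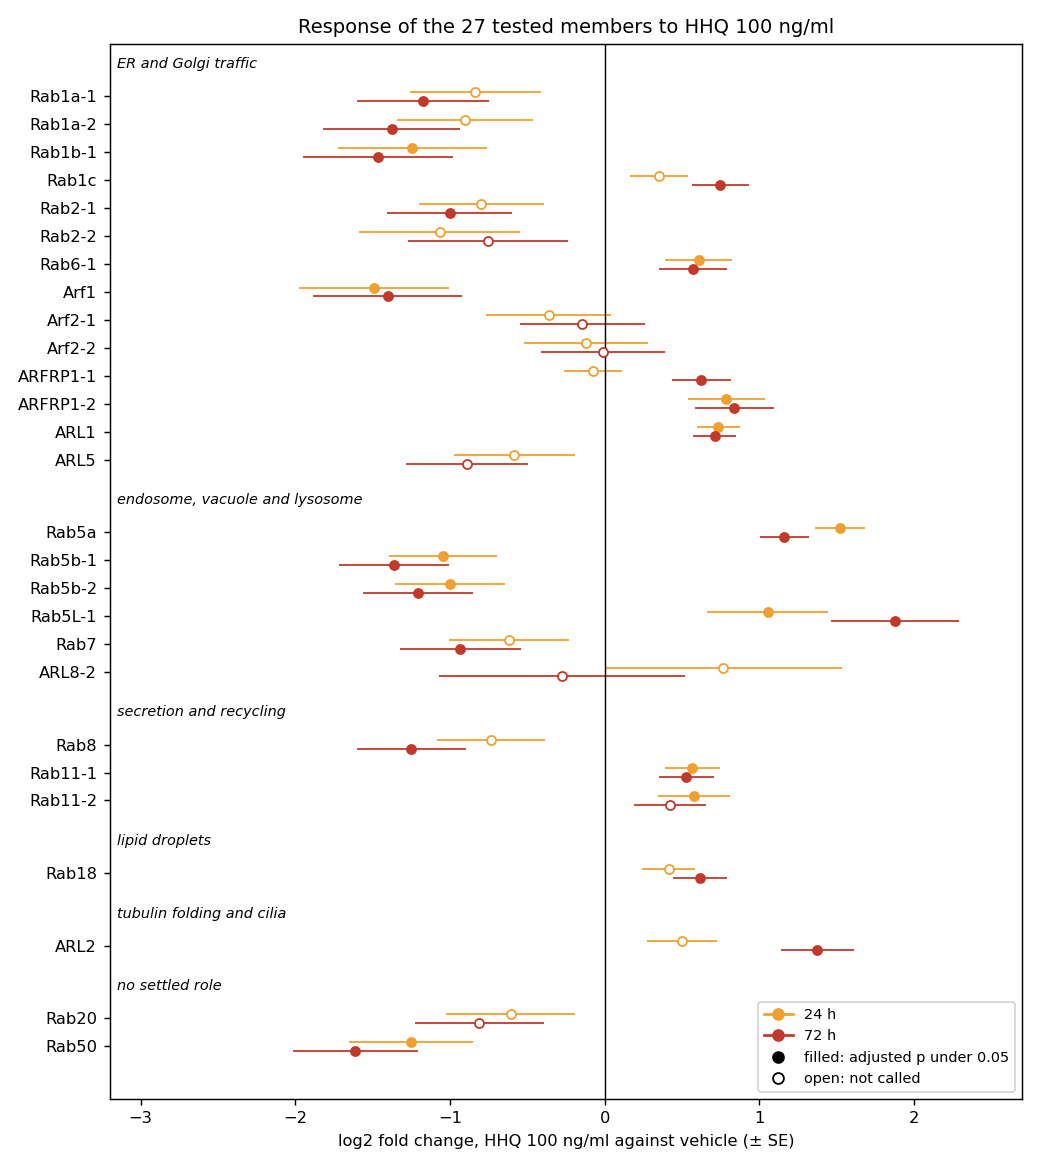
Log2 fold change (± SE) of the 27 tested members in HHQ 100 against vehicle at 24 h (orange) and 72 h (red), 4 libraries per group, TMM scale, by usual role of the protein. Filled points were called, 12 at 24 h and 20 at 72 h. In the ER and Golgi, endosome and secretion groups members lie on both sides of 0, and with library totals as the scale Rab2-1 and Rab7 at 72 h are the called members that change sign.

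The scale moved all genes together. Library totals put the median of all genes tested at 0.87 log2 units at 24 h and 1.17 at 72 h. A change of scale multiplies all genes of a library by 1 factor, so places relative to that median were nearly fixed in advance. No tested member crossed from one side of it to the other at either time, which is not a test of the falls. The 5 members called lower at 24 h lay 1.07 to 1.56 log2 units below the median of all genes on the TMM scale and 0.99 to 1.47 below it with totals. The 10 called lower at 72 h lay 0.97 to 1.65 and 1.01 to 1.64 below it. The falls given below are to be read as falls relative to most other genes.

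**Figure D2:**
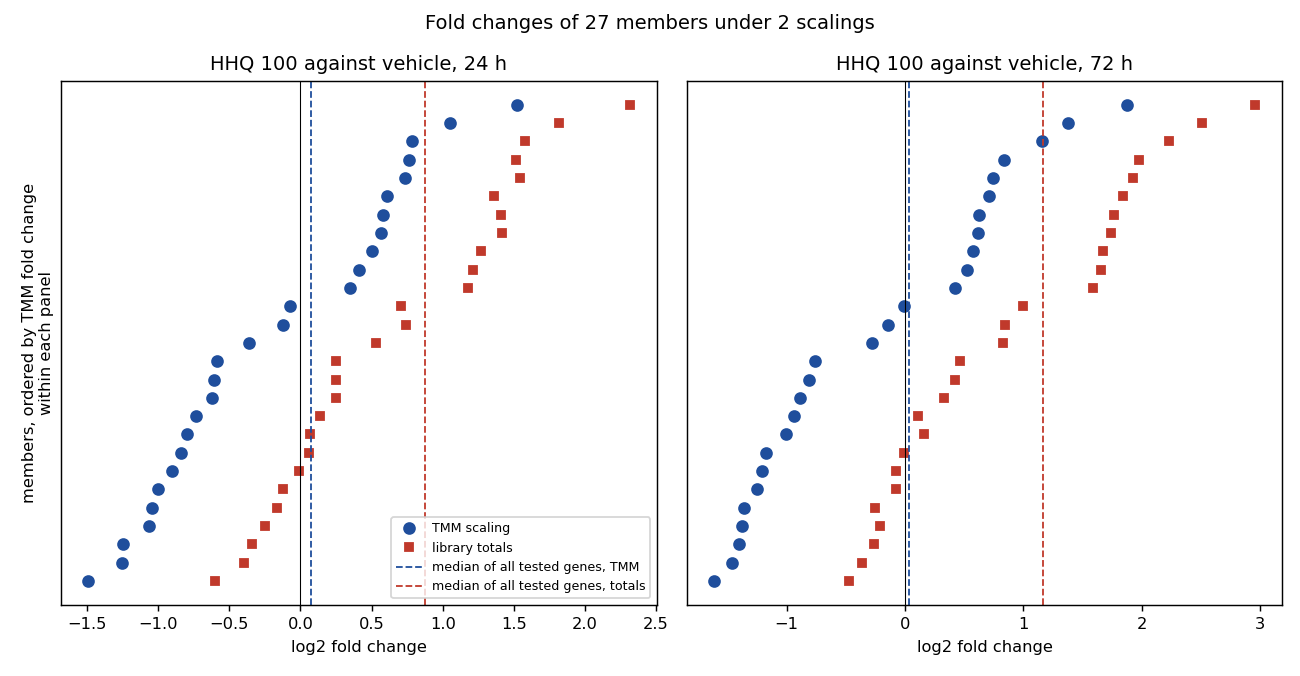
Log2 fold change of each of the 27 tested members in HHQ 100 against vehicle under TMM scaling (blue circles) and library totals (red squares), with the median of all tested genes under each as a dashed line. The whole set is displaced by about as much as the median, from 0.07 to 0.87 at 24 h and from 0.04 to 1.17 at 72 h, so that members called lower on the TMM scale lie between −0.60 and 0.16 with totals and below the red line.

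Among the endosomal members, Rab5 genes moved in both directions. Rab5 marks early endosomes and drives their fusion. Rab5a measured 10.0, 8.12, 10.5 and 7.81 CPM in vehicle replicates 1 to 4 at 24 h and 24.0, 30.0, 27.02 and 23.8 CPM in HHQ 100. Every HHQ 100 library lay above every vehicle library. The rise was 2.87-fold (log2 fold change 1.52 ± 0.16, adjusted p = 1.19e-08). At 72 h the values were 8.71, 7.75, 10.8 and 9.76 CPM with vehicle and 22.3, 19.8, 18.7 and 22.2 CPM with HHQ 100, again without overlap. That rise was 2.24-fold (1.16 ± 0.16, adjusted p = 7.92e-07).

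The near-identically named Rab5b-1 and Rab5b-2 went the other way. Rab5b-1 measured 268, 226, 323 and 492 CPM with vehicle at 24 h and 148, 162, 132 and 193 CPM with HHQ 100. The groups did not overlap, and vehicle replicate 4 stood highest. Rab5b-1 was 2.06-fold lower (log2 fold change −1.04 ± 0.35, adjusted p = 0.0178) and Rab5b-2 2.00-fold lower (−0.997 ± 0.36, adjusted p = 0.0248). Without vehicle replicate 4 both calls were lost, at adjusted p = 0.0979 and 0.121, and Rab5b-2 was also lost without HHQ 100 replicate 1 (0.0528) or 3 (0.0561).

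At 72 h Rab5b-1 measured 501, 828, 388 and 323 CPM with vehicle and 242, 293, 105 and 153 CPM with HHQ 100. These groups did not overlap, and replicates 1 and 2 lay above replicates 3 and 4 in both. Rab5b-1 was 2.57-fold lower (−1.36 ± 0.35, adjusted p = 0.00233) and Rab5b-2 2.31-fold lower (−1.21 ± 0.36, adjusted p = 0.00657). The ranges of Rab5b-2 overlapped, and its call was lost without vehicle replicate 2 (adjusted p = 0.0638). With library totals neither copy was called at either time, with log2 fold changes from −0.25 to −0.07.

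Rab5L-1, a Rab5-like gene of low level, measured 2.38, 2.85, 3.39 and 1.43 CPM with vehicle at 24 h and 4.92, 6.09, 5.76 and 4.35 CPM with HHQ 100. The groups did not overlap. It rose 2.07-fold (1.05 ± 0.39, adjusted p = 0.0304), a call lost when any of 6 of the 8 libraries was left out, those other than vehicle replicate 3 and HHQ 100 replicate 4 (adjusted p from 0.0525 to 0.105 in those 6). At 72 h it measured 0.878, 0.613, 2.09 and 1.95 CPM with vehicle and 4.12, 3.43, 6.57 and 6.13 CPM with HHQ 100, the largest fold of the 27 tested members at that time, without overlap. There it rose 3.67-fold (1.88 ± 0.41, adjusted p = 0.000477), and the call held without each single library.

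Rab7, which acts at late endosomes and the vacuole, was 1.91-fold lower at 72 h (−0.93 ± 0.39, adjusted p = 0.05 after rounding, just under the threshold). It ranged from 309 to 776 CPM with vehicle and from 83.8 to 439 CPM with HHQ 100, so the groups overlapped. The call was lost without vehicle replicate 1 or 2 or HHQ 100 replicate 3 or 4 (adjusted p from 0.0761 to 0.232), and with library totals the sign turned, to 0.11. At 24 h the log2 fold change was −0.62 ± 0.39 and not called. ARL8-2, whose relatives position lysosomes in animals, was at 0.44 CPM against 0.258 CPM at 24 h and 0.263 against 0.314 CPM at 72 h, neither called.

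**Figure D3:**
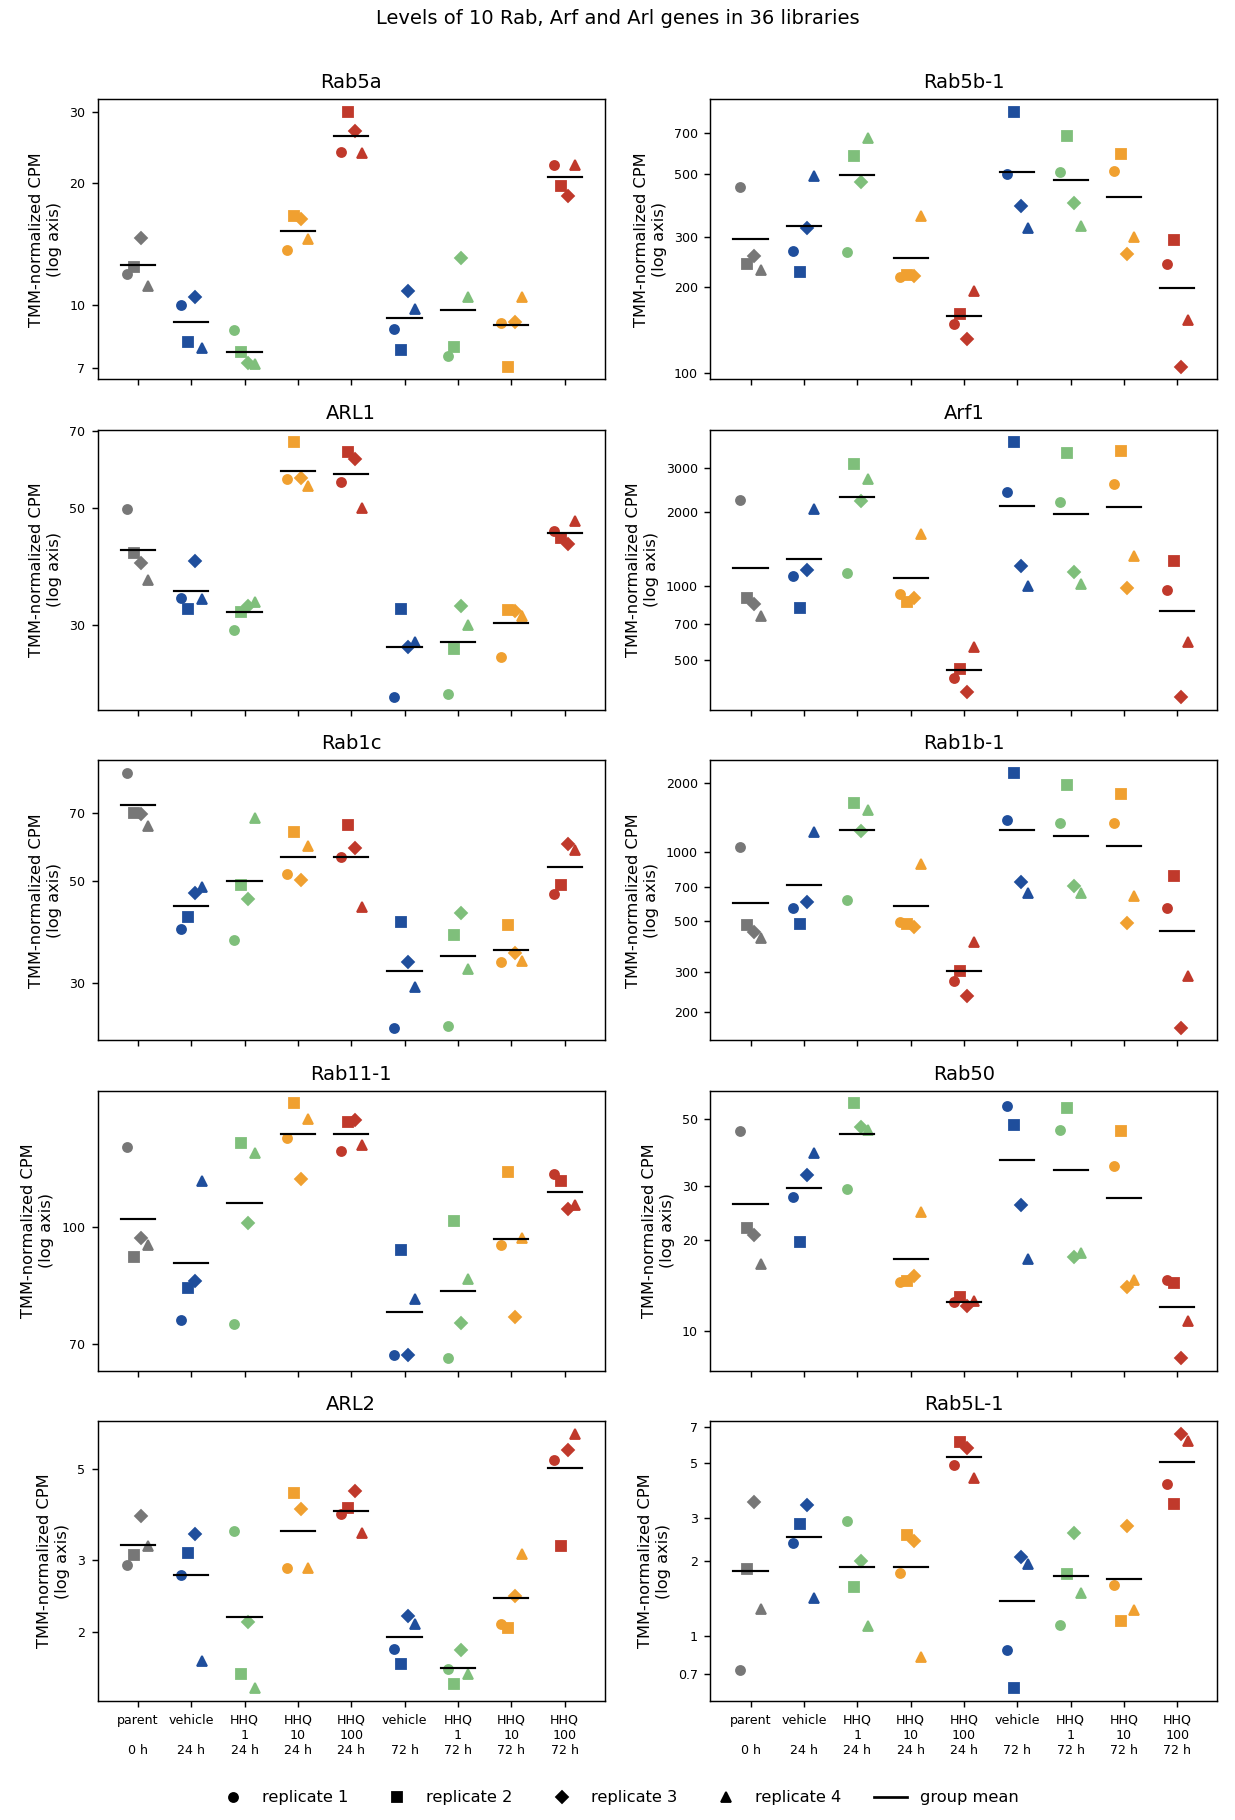
TMM-normalized CPM (log axes) of 10 members in each of the 36 libraries; symbols mark replicates 1 to 4, colours the treatment, and bars the group mean. Rab5a, ARL1, Rab1c, Rab11-1, ARL2 and Rab5L-1 are on average higher in HHQ 100 than in vehicle at both times. Rab5b-1, Arf1, Rab1b-1 and Rab50 are lower, but none of them was called lower with library totals. Each of the 10, chosen for display, kept its direction with totals, unlike Rab2-1 and Rab7 at 72 h, which are not drawn. At 72 h replicates 1 and 2 of Arf1 and Rab1b-1 lie above replicates 3 and 4 in every treatment.

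Of the tested members, 14 belong to traffic between the endoplasmic reticulum (ER) and the Golgi or through the Golgi. At 24 h 3 of them were called higher and 2 lower, and at 72 h 5 and 5, beside 41.1% and 46.2% of all tested genes in either direction. Arf1, the switch that recruits the COPI coat at the Golgi, measured 1096, 817, 1167 and 2058 CPM with vehicle at 24 h and 425, 463, 373 and 567 CPM with HHQ 100. The lowest vehicle library was above the highest HHQ 100 library. Arf1 was 2.81-fold lower (log2 fold change −1.49 ± 0.48, adjusted p = 0.0141).

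At 72 h Arf1 measured 2396, 3814, 1209 and 997 CPM with vehicle and 966, 1267, 355 and 593 CPM with HHQ 100. The ranges overlapped, and replicates 1 and 2 were the higher ones in both groups. Arf1 was 2.64-fold lower (−1.40 ± 0.48, adjusted p = 0.0176). Leaving out vehicle replicate 4 at 24 h ended the call (adjusted p = 0.0714). At 72 h it ended without vehicle replicate 2 (0.123), HHQ 100 replicate 3 (0.0755) or replicate 4 (0.0594). With library totals Arf1 was not called, at −0.60 (adjusted p = 0.0662) and −0.26 (0.404).

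The Rab1 genes, whose proteins act on vesicles arriving at the Golgi from the ER, divided as the Rab5 genes did. Rab1b-1 measured 566, 484, 603 and 1217 CPM with vehicle at 24 h and 272, 303, 235 and 403 CPM with HHQ 100. The groups did not overlap, and replicate 4 was the highest in both. Rab1b-1 was 2.37-fold lower (−1.24 ± 0.48, adjusted p = 0.0382). At 72 h the values were 1373, 2216, 742 and 665 CPM with vehicle and 569, 786, 171 and 286 CPM with HHQ 100, overlapping between groups. It was 2.76-fold lower there (−1.46 ± 0.48, adjusted p = 0.0139).

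Rab1a-1 and Rab1a-2 were 2.26-fold (−1.18 ± 0.43, adjusted p = 0.0242) and 2.60-fold lower (−1.38 ± 0.44, adjusted p = 0.0118) at 72 h, each with overlapping ranges. At 24 h they were at −0.84 ± 0.42 and −0.90 ± 0.44 and were not called. At 72 h all 3 genes were higher in replicates 1 and 2 than in 3 and 4 in both groups. In each replicate number the HHQ 100 library was the lower. With the replicate number as a block, the calls of Rab1b-1 at both times and Rab1a-2 at 72 h held. Not every pair of same-numbered libraries correlated above 0.1 there, however. Without the block, leaving out a single library could end these calls. Rab1b-1 at 24 h was lost without vehicle replicate 4 (adjusted p = 0.184) or HHQ 100 replicate 1, 2 or 3 (0.0685 to 0.0921). At 72 h vehicle replicate 2 ended the calls of all 3 genes when left out (0.0948 for Rab1b-1, 0.167 for Rab1a-1, 0.0946 for Rab1a-2), as did HHQ 100 replicate 3 (0.0636, 0.0915 and 0.0515). HHQ 100 replicate 4 ended those of Rab1b-1 (0.0558) and Rab1a-1 (0.0734), and vehicle replicate 1 that of Rab1a-1 (0.0531).

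Rab1c was in the opposite direction. At 24 h it measured 39.4, 41.7, 46.9 and 48.4 CPM with vehicle and 56.4, 66.0, 58.8 and 43.7 CPM with HHQ 100, where replicate 4 lay within the vehicle range, and it was not called (0.35 ± 0.18, adjusted p = 0.128). At 72 h it measured 24.0, 40.7, 33.4 and 29.4 CPM with vehicle and 46.9, 48.9, 60.1 and 58.3 CPM with HHQ 100. All 4 HHQ 100 libraries were above the vehicle range. Rab1c rose 1.68-fold (0.75 ± 0.19, adjusted p = 0.00159), and the call held without each single library.

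Rab2-1, of a family that acts on retrograde traffic and tethering at the Golgi, was 2.00-fold lower at 72 h (−1.002 ± 0.40, adjusted p = 0.0422) with overlapping ranges. The call was lost without vehicle replicate 1 or 2 or HHQ 100 replicate 1, 3 or 4 (adjusted p from 0.0641 to 0.22), and with library totals the sign turned, to 0.16. Rab2-2, of the same name, stayed under 2 CPM in every library and was not called against vehicle. Rab6-1, a Golgi Rab of retrograde transport, rose 1.52-fold at 24 h (0.61 ± 0.22, adjusted p = 0.0263) and 1.49-fold at 72 h (0.57 ± 0.22, adjusted p = 0.033). Its ranges overlapped at 24 h only, and at each time leaving out any of 4 libraries ended the call, vehicle replicates 2 and 4 at both times, with HHQ 100 replicates 1 and 2 at 24 h (adjusted p from 0.076 to 0.133) and replicates 3 and 4 at 72 h (0.0611 to 0.133).

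ARL1, which recruits tethers of the golgin class to the trans-Golgi, was one of the steadiest members. It measured 33.8, 32.2, 39.7 and 33.6 CPM with vehicle at 24 h and 56.0, 64.0, 61.9 and 50.01 CPM with HHQ 100. At 72 h the values were 21.9, 32.3, 27.3 and 27.9 CPM with vehicle and 45.3, 43.9, 42.8 and 47.2 CPM with HHQ 100. The groups were apart at both times. ARL1 rose 1.66-fold at 24 h (0.73 ± 0.14, adjusted p = 0.000104) and 1.64-fold at 72 h (0.71 ± 0.14, adjusted p = 0.000119), and both calls held without each single library.

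The ARFRP1 genes encode relatives of the animal and yeast protein that brings ARL1 to the Golgi. ARFRP1-2 measured 3.58, 4.48, 4.40 and 2.92 CPM with vehicle at 24 h and 5.84, 7.14, 8.52 and 5.18 CPM with HHQ 100, without overlap. It rose 1.73-fold at 24 h (0.79 ± 0.25, adjusted p = 0.0122), a call lost without HHQ 100 replicate 3 (0.0686), and 1.79-fold at 72 h (0.84 ± 0.26, adjusted p = 0.00819). ARFRP1-1 was flat at 24 h (−0.08 ± 0.19, adjusted p = 0.773) and rose 1.54-fold at 72 h (0.62 ± 0.19, adjusted p = 0.00812), with overlapping ranges. Arf2-1, Arf2-2 and ARL5 were called at neither time. For the Arf2 genes the replicates differed at 72 h. Arf2-1 and Arf2-2 were at 0.35 and 0.49 in replicates 1 and 2, and at −1.14 and −1.01 in replicates 3 and 4, none called.

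BIG1, an exchange factor that loads GTP on Arf proteins, was at 57.5 ± 7.49 CPM with vehicle and 128 ± 14.7 CPM with HHQ 100 at 24 h. It was 2.23-fold higher there (adjusted p = 8.66e-07) and 2.31-fold higher at 72 h (2.8e-07). Both calls of BIG1 remained with library totals.

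Among the members for secretion and recycling, Rab11-1 and Rab11-2 stood higher and Rab8 lower. Rab11 serves recycling endosomes and delivery to the cell surface. Rab11-1 measured 75.3, 83.0, 84.9 and 115 CPM with vehicle at 24 h and 126, 137, 138 and 128 CPM with HHQ 100. At 72 h it measured 67.7, 93.1, 67.6 and 80.4 CPM with vehicle and 118, 115, 106 and 107 CPM with HHQ 100, without overlap at either time. It rose 1.48-fold at 24 h (0.57 ± 0.18, adjusted p = 0.0119) and 1.44-fold at 72 h (0.53 ± 0.18, adjusted p = 0.016). The call was lost at 24 h without vehicle replicate 1 (0.0618) and at 72 h without vehicle replicate 1 (0.0545) or 3 (0.051). Rab11-2 rose 1.49-fold at 24 h (0.58 ± 0.23, adjusted p = 0.0475), a call that ended whichever of the 8 libraries was left out (0.051 to 0.161), and was not called at 72 h.

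Rab8, of a family that carries cargo from the Golgi to the plasma membrane, measured 335, 474, 184 and 174 CPM with vehicle at 72 h and 136, 157, 86.3 and 110.5 CPM with HHQ 100. The groups did not overlap. It was 2.38-fold lower (−1.25 ± 0.35, adjusted p = 0.00451), and at 24 h it was at −0.73 ± 0.35 and not called. The 72 h call held without each single library, and with library totals the difference was −0.08 (adjusted p = 0.715).

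Rab18, associated with lipid droplets in animals, measured 17.6, 16.6, 26.4 and 16.9 CPM with vehicle at 24 h and 22.1, 24.98, 31.1 and 25.1 CPM with HHQ 100, which overlap, and was not called (0.41 ± 0.17, adjusted p = 0.0561). At 72 h it measured 13.9, 22.01, 18.98 and 17.9 CPM with vehicle and 31.6, 26.98, 25.99 and 27.1 CPM with HHQ 100, without overlap. There it rose 1.54-fold (0.62 ± 0.17, adjusted p = 0.00455).

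ARL2 assists tubulin folding. It measured 1.82, 1.67, 2.19 and 2.10 CPM with vehicle at 72 h and 5.25, 3.24, 5.54 and 6.08 CPM with HHQ 100. Every HHQ 100 library was above the vehicle range, with replicate 2 the lowest of them. ARL2 rose 2.59-fold (1.37 ± 0.23, adjusted p = 2.17e-05), whereas at 24 h it was at 0.50 ± 0.23 and missed the threshold (adjusted p = 0.0744). The difference between these responses was 0.87 ± 0.32 and was not called (adjusted p = 0.117).

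Rab50 and Rab20 have no settled role attached to their symbols here. Rab50 measured 27.6, 19.7, 32.6 and 38.7 CPM with vehicle at 24 h and 12.4, 12.9, 12.02 and 12.5 CPM with HHQ 100. The HHQ 100 libraries were nearly equal and all below the vehicle range. At 72 h the values were 55.3, 47.8, 25.95 and 17.3 CPM with vehicle and 14.7, 14.4, 8.11 and 10.7 CPM with HHQ 100, again apart. Rab50 was 2.38-fold lower at 24 h (−1.25 ± 0.40, adjusted p = 0.0132) and 3.06-fold lower at 72 h (−1.61 ± 0.41, adjusted p = 0.00174). Both calls held without each single library and neither with library totals, where Rab50 was at −0.40 (0.204) and −0.47 (0.114). Rab20 was called at neither time.

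Counting all members, 3 of the 12 calls at 24 h (Rab5a, ARL1 and Rab50) and 11 of the 20 at 72 h held in every fit that left out 1 library. The number called at 24 h was 5 without vehicle replicate 4 and 7 without HHQ 100 replicate 1 or 3, and at 72 h it was 13 without vehicle replicate 2 or HHQ 100 replicate 3. The share of all genes called in those fits was not kept, so a drop particular to the members is not shown. In the replicates labelled 1 to 3 at 24 h 6 members were called, all higher, beside 32.8% of all genes in that fit. At 72 h 12 were called in replicates 3 and 4, 7 higher and 5 lower, beside 34.9%. In replicates 1 and 2 it was 17, 6 higher and 11 lower, beside 33.1%. ARL5 (adjusted p = 0.0114) and Rab20 (0.0204) were among those lower. With the compared groups alone at 24 h it was 18, 6 higher and 12 lower, beside 44.8%.

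The response at 72 h was also tested against that at 24 h, as the difference between both HHQ 100 effects. No member was called, beside 6.03% of all tested genes (3.37% larger and 2.65% smaller at 72 h). Unadjusted p was under 0.05 for 2 members by edgeR, ARL2 and ARFRP1-1 (0.70 ± 0.27, adjusted p = 0.128), beside 17.7% of all tested genes. DESeq2 called 2, beside 8.85% of all genes in that fit. So the larger number of calls at 72 h is not a test that members responded more there.

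The SD of log2 CPM within groups, pooled over the 9, was 0.161 for ARL1, 0.207 for Rab5a, 0.228 for Rab11-1, 0.23 for Rab18 and 0.246 for Rab1c. It was 0.504 for Rab5b-1, 0.591 for Rab50, 0.613 for Rab1a-1, 0.696 for Arf1 and 0.701 for Rab1b-1. The 10 members called lower at 72 h had SDs from 0.501 to 0.701, and the 10 called higher from 0.161 to 0.603, Rab5L-1 being the highest of these.

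Many of the 27 tested members, not the scattered ones alone, were high in the same libraries. Vehicle replicate 2 at 72 h held the highest value of its group for 19 of the 27 tested members and had the lowest TMM factor of the 36 libraries, 0.491. ARL1, Rab11-1, Rab18 and Rab1c, given above with low SDs, were among these 19. Parent replicate 1 held 19 of the highest values, vehicle replicate 4 at 24 h 18 and HHQ 10 replicate 4 at 24 h 16, and each had the lowest TMM factor of its group, 0.859, 0.670 and 0.927. How many of all tested genes were highest in these libraries was not counted. The part of these factors in the members' spread was not tested.

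Ratios between 2 members within a library do not depend on the scale, and are given as a description of pairs chosen after the values were seen. Rab5a made up 20.8, 19.2, 18.1 and 8.84 counts per 1000 counts of Rab5b-1 and Rab5b-2 with vehicle at 24 h. It made up 33.4, 40.6, 40.4 and 22.6 with HHQ 10 and 88.0, 99.6, 108 and 69.8 with HHQ 100. The vehicle, HHQ 10 and HHQ 100 libraries did not overlap, while HHQ 1, at 17.5, 7.23, 8.48 and 6.28, lay within or below the vehicle range. At 72 h it was 12.5 ± 5.97 with vehicle, 14.1 ± 6.83 with HHQ 10 and 66.0 ± 27.1 with HHQ 100, and the lowest HHQ 100 library, at 37.8, was above the highest vehicle library, at 18.

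ARL1 made up 30.1 ± 9.87 counts per 1000 of Arf1 with vehicle at 24 h, 59.1 ± 18.2 with HHQ 10 and 131 ± 32.1 with HHQ 100. Rab1c made up 23.3 ± 6.63 counts per 1000 of the other Rab1 genes with vehicle at 24 h and 54.1 ± 11.8 with HHQ 100, and 11.5 ± 5.83 and 47.5 ± 27.4 at 72 h. Together Arf1, Rab1a-1 and Rab1b-1 took 57.7% ± 2.96 of all member counts with vehicle at 24 h and 46.1% ± 0.917 with HHQ 100. At 72 h these shares were 59.6% ± 4.52 and 50.4% ± 2.35.

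**Figure D4:**
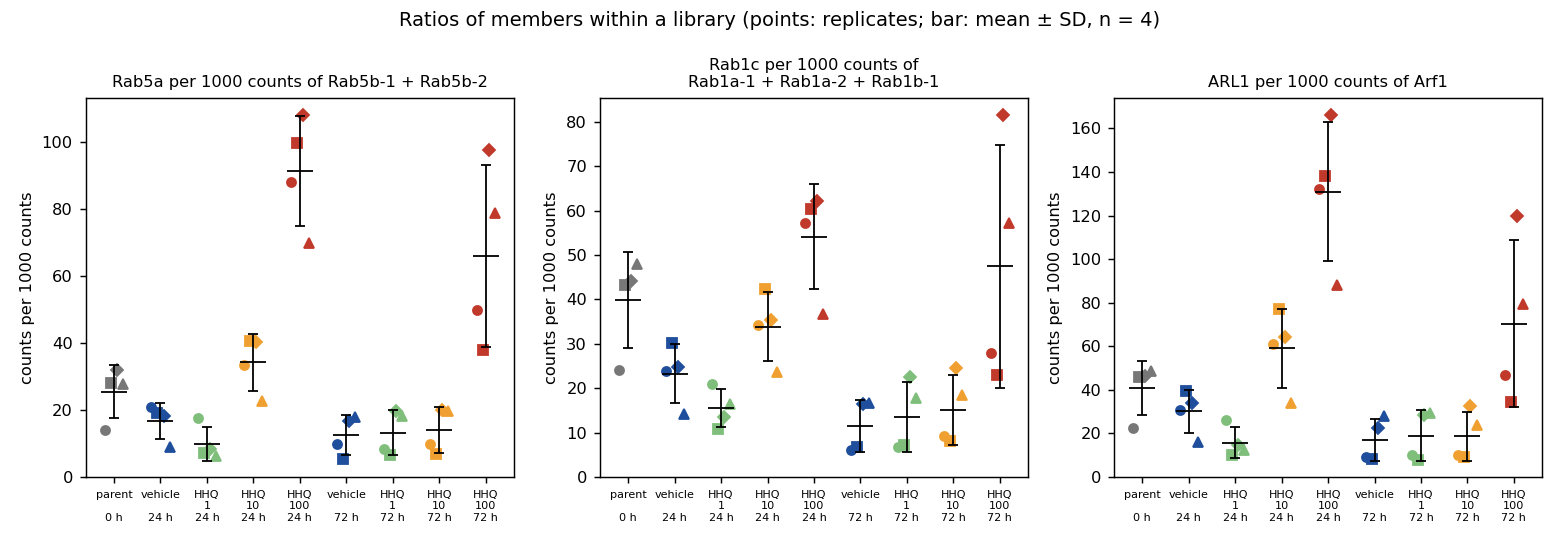
Counts of Rab5a, Rab1c and ARL1 per 1000 counts of the related genes named above each panel, by library (points) and as mean ± SD (bars, n = 4), for the 9 groups; axes start at 0. In the Rab5 panel HHQ 100 libraries lie between 37.8 and 108, above all vehicle libraries, which reach 20.8, and HHQ 10 at 24 h lies between 22.6 and 40.6.

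HHQ 10 was compared with vehicle to see whether a lower dose changed the same genes. At 24 h 3 members rose and none fell, 11.1% of those tested beside 11.8% of all tested genes (7.39% higher and 4.37% lower). Rab5a measured 13.7, 16.6, 16.3 and 14.6 CPM with HHQ 10, each above the vehicle range that reached 10.5 CPM, a 1.68-fold rise (0.74 ± 0.16, adjusted p = 0.00138). ARL1 measured 56.8, 66.6, 57.1 and 55.0 CPM, above the vehicle range that reached 39.7 CPM, a 1.69-fold rise (0.76 ± 0.14, adjusted p = 0.000222). Rab11-1 measured 131, 146, 116 and 139 CPM and rose 1.48-fold (0.57 ± 0.18, adjusted p = 0.0324), a call that 6 of the 8 fits without 1 library lost (0.065 to 0.111), all but those without vehicle replicate 4 or HHQ 10 replicate 3.

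Replicate numbers paired the libraries in this comparison, and with the number as a block 5 members were called, beside 20.4% of all genes in that fit: these 3, Rab11-2 (0.54, adjusted p = 0.0269) and Rab50, which was lower (−0.79, adjusted p = 0.0164). At 72 h no member was called for HHQ 10, beside 0.947% of all tested genes (0.672% higher and 0.276% lower). By edgeR 0 members had an unadjusted p under 0.05, beside 9.14% of all tested genes. DESeq2 called 0, beside 2.49% of all genes in that fit. Rab5a was then at 9.01, 7.04, 9.10 and 10.5 CPM, with replicate 2 below the vehicle range and the others within it, and ARL1 at 26.1, 32.01, 31.9 and 31.2 CPM. Whether the response to HHQ 10 differed between both times was not tested.

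The 3 members that rose with HHQ 10 at 24 h did not go on alike at the higher dose. These comparisons share the HHQ 10 or the vehicle libraries. Rab5a was 1.71-fold higher in HHQ 100 than in HHQ 10 at 24 h (0.78 ± 0.16, adjusted p = 0.000691), whereas ARL1 differed by −0.02 ± 0.14 (adjusted p = 0.936) and Rab11-1 by −0.00 ± 0.18 (0.995) on the log2 scale. The SEs leave room for small differences in ARL1 and Rab11-1.

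In all, 5 members were called in HHQ 100 against HHQ 10 at 24 h, beside 18.7% of all tested genes (9.5% higher and 9.18% lower). Rab5L-1 (2.73-fold, adjusted p = 0.0105), Rab5a, ARFRP1-2 (1.63-fold, 0.0465) and Rab18 (1.42-fold, 0.0406) were higher, and Rab2-2 was 2.81-fold lower (0.0437). Rab2-2 lay between 0.181 and 0.477 CPM with HHQ 100 and between 0.519 and 1.72 CPM with HHQ 10, with replicate 4 far above the others. Its call was lost in 5 of the 8 fits without 1 library (adjusted p from 0.0572 to 0.236). The calls of Rab5a and Rab5L-1 held without each single library, and 2 to 5 members were called in those 8 fits, 2 or 3 when a single HHQ 10 library was left out and 2 without HHQ 100 replicate 1, 2 or 3. The share of all genes called was not kept for those fits. With the replicate block, which the numbers warrant here, 13 members were called, beside 35.6% of all genes in that fit, 5 higher and 8 lower, Arf1 (−1.20, 0.00273) and Rab1b-1 (−0.92, 0.00844) among the latter. With library totals 7 members were called, all higher, beside 24.3% of all genes, and the median of all genes moved from 0.06 to 0.59.

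At 72 h 15 members were called in HHQ 100 against HHQ 10, 9 higher and 6 lower, or 55.6% beside 39.5% of all tested genes (19.3% higher and 20.2% lower). The numbers pair the libraries here too, and with the replicate block 19 were called, 9 higher and 10 lower, beside 48.7% of all genes in that fit. With library totals 12 were called, all higher, beside 53.6% of all genes, and the median of all genes moved from 0.03 to 1.01. Rab5a was 2.33-fold higher (1.22 ± 0.16, adjusted p = 6.84e-07), Rab5L-1 2.96-fold (1.56 ± 0.41, 0.0031) and ARL2 2.10-fold (1.07 ± 0.23, 0.000618). Arf1 was 2.64-fold lower (−1.40 ± 0.48, 0.0215), Rab1b-1 2.35-fold (−1.24 ± 0.48, 0.0407) and Rab50 2.29-fold (−1.20 ± 0.40, 0.0185), all with overlapping ranges. The last 3 calls were lost without HHQ 10 replicate 1 or 2 or HHQ 100 replicate 3 or 4, and the number of members called was then 8, 6, 8 and 7. Rab1b-1 was also lost without HHQ 100 replicate 1 (0.0557). For fits without 1 library the share of all genes called was not kept.

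HHQ 1 gave no called member at 24 h or 72 h, and no gene of all those tested was called, 0% in each. At 24 h 1 member had an unadjusted p under 0.05 by edgeR, beside 7.72% of all tested genes. This was ARFRP1-1, at 3.60, 2.89, 2.64 and 2.92 CPM, below the vehicle range of 4.14 to 6.16 CPM (−0.85 ± 0.20, adjusted p = 0.398). Arf1 measured 1131, 3106, 2205 and 2706 CPM with HHQ 1 at 24 h, of which 3 were above the vehicle range, but the difference was 0.83 ± 0.48 (adjusted p = 0.537). At 72 h no member had an unadjusted p under 0.05, beside 1.86% of all tested genes. DESeq2 also called no member for HHQ 1.

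The vehicle cultures were also set against their parents. Time in culture, transfer and the vehicle cannot be told apart here. Of the 27 tested members 3 were lower after 24 h and none higher, or 11.1% beside 18.9% of all tested genes (9.81% higher and 9.12% lower). Rab1c fell from 85.6, 70.1, 69.9 and 65.8 CPM in the parents to between 39.4 and 48.4 CPM, 1.65-fold and without overlap (−0.72 ± 0.19, adjusted p = 0.00398). Rab18 fell from between 25.1 and 36.9 CPM to between 16.6 and 26.4 CPM, 1.62-fold with a small overlap (−0.70 ± 0.17, adjusted p = 0.00328). Rab5a fell from between 11.1 and 14.6 CPM to between 7.81 and 10.5 CPM, 1.37-fold (−0.46 ± 0.16, adjusted p = 0.0393), a call lost without parent replicate 1 or 3 or vehicle replicate 2 or 4 (0.0516 to 0.124). Between vehicle cultures at 72 and 24 h no member was called, beside 7.11% of all tested genes (3.92% higher and 3.19% lower). By edgeR 6 members had an unadjusted p under 0.05, beside 21.3% of all tested genes. DESeq2 called 3, beside 11.8% of all genes in that fit.

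Several members carry the names of copies, and reads that fit both are divided between them by Salmon, so each value of a pair is uncertain. The share of Rab1a-1 in the pair Rab1a-1 and Rab1a-2 ran from 74.0 to 80.0% over the 36 libraries, that of Rab5b-1 from 52.6 to 59.8% and that of Rab11-1 from 50.9 to 63.1%. Rab2-1 took 98.6 to 99.9% of its pair. Rab2-2 spans 195 bp, beside 1364 bp for Rab2-1, and whether it encodes a whole Rab protein was not tested. The shares of Arf2-1, 21.9 to 41.0%, and ARFRP1-1, 39.2 to 67.4%, varied more. Rab5a and Rab5b, and Rab1c and Rab1b-1, moved in opposite directions and are named as separate genes, not as copies.

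The machinery that these GTPases work with was described from lists of symbols. Over all tested genes 21.6% were called higher and 19.5% lower with HHQ 100 at 24 h, and 22.6% and 23.6% at 72 h. Of 9 other tested small GTPases, 5 were lower and none higher with HHQ 100 at 24 h, and 3 lower and 1 higher at 72 h, with medians of −1.25 and −0.87 log2 units beside 0.07 and 0.04 over all genes tested. Rac1-1, whose relatives act on the actin cytoskeleton, was 5.03-fold lower at 24 h (adjusted p = 0.00398), a call that remained with library totals (−1.41, adjusted p = 0.00562). Sar1b, which starts COPII coats at the ER, was 2.38-fold lower at 24 h (2.73e-05) and at −0.01 ± 0.22 at 72 h. Sar1a-1 and Sar1a-2 were 2.89-fold (0.00854) and 2.34-fold (0.0118) lower at 72 h, and RAN-1, of nuclear transport, was 1.43-fold higher (0.0293). With library totals Rac1-1 at 24 h was the only one of the 9 called lower at either time, and 2 were called higher at 24 h and 3 at 72 h. The medians were then −0.47 and 0.33, beside 0.87 and 1.17 over all genes tested.

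Coat genes moved in both directions. Of 12 COPI subunits, the coat that Arf1 recruits, 7 were higher and 1 lower at 24 h, and 4 higher and 2 lower at 72 h, with medians of 0.41 and 0.06. Beside them, 21.6% of all tested genes were higher and 19.5% lower at 24 h, and 22.6% and 23.6% at 72 h. COPG1-2 rose 1.74-fold (adjusted p = 8.91e-05) and COPB2-2 1.69-fold (0.000729) at 24 h, and COPG1-2 2.23-fold (2.71e-07) and COPB2-1 2.18-fold (1.97e-05) at 72 h. COPB1-2 was 2.43-fold lower at 24 h (0.00107), and COPB1-1b and COPB1-2 were 1.77-fold (0.00701) and 1.65-fold (0.0461) lower at 72 h. These falls were at low levels, with group means from 3.04 to 7.45 CPM. COPB1-1a, of far higher level, rose from 285 to 413 CPM at 24 h (adjusted p = 0.00672) and stood at 382 against 219 CPM at 72 h (0.000122). With library totals 9 were called higher at each time and none lower, beside 11545 of the 26494 tested genes higher at 24 h and 14505 at 72 h.

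Of 17 tested genes of clathrin and its adaptors, which take cargo from the Golgi and the plasma membrane to endosomes, 7 were higher and 1 lower at 24 h, and 6 and 1 at 72 h, with medians of 0.27 and 0.33. The shares of all tested genes were 21.6% higher and 19.5% lower at 24 h, and 22.6% and 23.6% at 72 h. The adaptor genes AP2A-1 and AP12BB rose 1.89-fold (adjusted p = 4.39e-07) and 2.16-fold (8.86e-05) at 24 h, and 1.69-fold (6.32e-06) and 2.41-fold (1.4e-05) at 72 h. CHC, named for the clathrin heavy chain, was 2.72-fold lower at 24 h (0.0111) and 4.11-fold lower at 72 h (0.000596). With library totals 14 and 15 were called higher, beside 11545 and 14505 of the 26494 tested genes, and CHC was called lower at 72 h only (−0.99, 0.00899). CHC1, also in this list, had the opposite sign on that scale. It was at 0.29 (0.0513) at 24 h and 0.63 (0.000104, called higher) at 72 h, below the medians of all genes, 0.87 and 1.17.

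Of 6 genes of TRAPP, the exchange factor and tether of Rab1, TRS85 rose 2.13-fold (adjusted p = 0.00203) and BET3 1.34-fold (0.0192) at 24 h, and BET5 rose 1.62-fold (0.00611) at 72 h, with medians of 0.36 and 0.03. Of 7 genes of HOPS and CORVET, the tethers of Rab7 and Rab5, VPS18 rose 1.82-fold (0.0374) and VPS16 was 1.58-fold lower (0.0188) at 24 h, and Vps33-1 rose 2.45-fold (0.0466) at 72 h, with medians of 0.26 and 0.72. No other gene of these lists was called, beside 21.6% of all tested genes higher and 19.5% lower at 24 h, and 22.6% and 23.6% at 72 h. With library totals 4 TRAPP and 3 HOPS and CORVET genes were called higher at 24 h, all 6 and all 7 at 72 h, and none lower, VPS16 being at 0.21. On that scale 11545 of the 26494 tested genes were higher at 24 h and 14505 at 72 h. The medians of TRAPP and of HOPS and CORVET were 1.17 and 1.07 at 24 h, beside 0.87 for all genes. At 72 h they were 1.16 and 1.79, beside 1.17. No symbol matched the exocyst list, but the search did not cover EXOC symbols followed directly by a number. Whether exocyst genes are present was therefore not settled.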

How the data were processed

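The 36 libraries were stranded and made from mRNA, per the labels' protocols. Trimmomatic 0.38 and Salmon 0.12.0 are named in the submitters' processing notes, with transcripts and settings not given in the sources used here. What the authors deposited were Salmon's estimated counts for each gene, without normalization. Of these values 45.8% were not whole, and all were rounded. Genes with low counts were removed with filterByExpr (26494 of 37212 were kept). The rest were scaled with TMM factors (a trimmed mean over log ratios) and fitted in edgeR 4.0.16 (R 4.3.3) with 1 mean per group over all libraries. The quasi-likelihood test was two-sided, with Benjamini-Hochberg adjustment over all tested genes in each of 11 comparisons. The SE was taken as the log2 fold change over the square root of F. The script was tested on simulated data. Alternatives were library totals, DESeq2 size factors, DESeq2 1.42.0, no filter, the compared groups alone, a replicate block, sets of replicates and leaving out each library. Library totals for the partner lists and the ratios within a library were added after seeing the data.

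The members, role groups and partner lists were chosen with earlier results of these data known. Members were named as the 6 rising and 6 falling of largest fold change among those called at each time in HHQ 100 against vehicle, as the 3 and 3 of largest fold change in other comparisons, and, among partners, as the 2 and 2 of smallest p. Other called members were named after their values were seen. All 37 identifiers matched symbols of a RefSeq gene table (CCMP1516 assembly), from which only gene spans are used here. Chi-square per gene between replicates ran from 5.1 to 191 over 54 pairs, and no library was taken for a repeat of another.

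Replicate numbers come from the labels, and same-numbered libraries were checked for deviating together from their group means. For HHQ 100 with vehicle the correlation ran from 0.0137 to 0.448 at 24 h and from 0.0248 to 0.318 at 72 h. All 4 pairs were positive there, but not all were above 0.1. The correlation was above 0.1 for all 4 pairs in 5 comparisons. These were HHQ 10 with vehicle, from 0.174 to 0.5 at 24 h and from 0.201 to 0.438 at 72 h, HHQ 1 with vehicle at 72 h, from 0.284 to 0.445, and HHQ 100 with HHQ 10, from 0.12 to 0.422 at 24 h and from 0.134 to 0.45 at 72 h.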

Additional observations from a re-analysis of the deposited data

Results flagged for a closer look

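For the 18 members named by rule, 162 sets of 4 libraries were checked for a single library far from the other 3, by the gap to its neighbour as a share of the range. In 20 of them a library passed Dixon's critical value for sets of this size. Chance alone would give about 1 in 20 sets if they were independent and normally distributed. These sets were of CPM without logs and of members that share libraries, so the number is not a test against chance. These values came from 5 libraries.

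HHQ 10 replicate 4 at 24 h held 9. It was high for Arf1 at 1619 CPM, Rab1a-2 at 355 CPM, Rab1b-1 at 884 CPM, Rab2-2 at 1.72 CPM, Rab50 at 24.7 CPM, Rab5b-1 at 357 CPM, Rab5b-2 at 288 CPM and Rab8 at 215 CPM. It was low for ARFRP1-2 at 2.53 CPM.

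Parent replicate 1 held 7, all high: Arf1 at 2224 CPM, Rab11-1 at 128 CPM, Rab1a-2 at 583 CPM, Rab1b-1 at 1051 CPM, Rab5b-1 at 453 CPM, Rab5b-2 at 395 CPM and Rab8 at 328 CPM. Vehicle replicate 4 at 24 h was high for Rab1b-1 at 1217 CPM and Rab2-2 at 0.951 CPM. Vehicle replicate 3 at 24 h was high for Rab18 at 26.4 CPM, and HHQ 10 replicate 1 at 72 h was low for ARL1 at 26.1 CPM.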

How the results depend on the processing

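No member named by the rule turned its direction under any alternative. Of the other called members, Rab2-1 and Rab7 at 72 h did so with library totals. Arf2-1 and Arf2-2, which were not called, had opposite signs in replicates 1 and 2 and in replicates 3 and 4 at 72 h. Shares in brackets are of all genes called in the same fit. None was kept for fits without 1 library, so changes in those counts cannot be set against all genes. For HHQ 100 against vehicle at 24 h, 6 members were called in replicates 1 to 3 (32.8%) and 18 with the compared groups alone (44.8%). The replicate block gave 20 (52.8%), though not every pair of libraries correlated above 0.1 there. Leaving out 1 library gave 5 to 12. At 72 h 17 were called in replicates 1 and 2 (33.1%), 12 in replicates 3 and 4 (34.9%) and 12 with the compared groups alone (40.7%). Library totals gave 13 (60.8%), and 1 library left out 13 to 21. The block gave 22, 11 higher and 11 lower (54.5%), again without every pair correlating above 0.1. For HHQ 10 against vehicle at 24 h the replicate block gave 5 (20.4%), and 1 library left out 2 to 3. For HHQ 100 against HHQ 10 at 24 h there were 2 in replicates 1 to 3 (11.8%), 9 with the compared groups alone (30.1%) and 3 with DESeq2 size factors (18.7%). There were 2 without the filter (13.3%), 13 with the block (35.6%) and 2 to 5 with 1 library left out. At 72 h there were 9 in replicates 1 and 2 (26.3%), 7 with the compared groups alone (33%), 19 with the block (48.7%) and 6 to 18 with 1 left out. For the response at 72 h against 24 h, DESeq2 (8.85%) and DESeq2 size factors (6.73%) each gave 2, and 0 to 2 came with 1 left out (2 without HHQ 100 replicate 2 at 72 h, 1 without vehicle replicate 4 at 24 h). For vehicle at 72 h against 24 h DESeq2 gave 3 (11.8%), DESeq2 size factors 1 (7.7%), library totals 3 (7.56%) and 1 left out 0 to 2 (2 without vehicle replicate 4 at 24 h). Vehicle at 24 h against parent gave 2 to 4, and HHQ 1 at both times and HHQ 10 at 72 h gave 0 to 0. The cause of these shifts was not tested. The block ended the call of no named member. A fit without 1 library keeps 3 in that group. The culture numbers are biological replicates per the labels, and low members such as Rab2-2 and ARL8-2 rest on few counts.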
